A study of Mus musculus with 9 samples.

Results

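Heme synthesis genes were followed through 9 RNA-seq libraries of mouse erythroid cells. The members were given by name: the synthase genes Alas1 and Alas2, the enzyme genes Alad, Uros, Urod, Cpox, Ppox and Fech, and the carrier gene Slc25a38, 9 of 19840 gene names in the files. For each name the RefSeq record with the highest mean was kept, and all 9 members were detected in all 9 libraries.

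The study profiled fetal liver cells of C57BL/6 embryos at embryonic day 13.5 to 14.5, with 1 library per condition. Fresh BFU-E, the early progenitors named for the erythroid bursts they form, came from Kit-positive cells without lineage, CD16/32, CD41 or CD34 staining, as the 10% with the least surface CD71, the transferrin receptor. Fresh CFU-E, later progenitors named for their small erythroid colonies, were the 20% of the same cells with the most CD71, and erythroblasts were Ter119-positive and Kit-negative. The 6 cultured libraries came from BFU-E, which first spent 4 h in medium free of serum holding erythropoietin at 2 U/mL, IGF-1 at 40 ng/mL and stem cell factor at 100 ng/mL, then 4 h more with the agents. From a sort by low CD71 alone (the CD71 sort) there were 2 cultures, with water or with 100 nM dexamethasone (Dex, a synthetic glucocorticoid). A separate sort by low CD71 and low CD24a (the CD71/CD24a sort) gave 4 cultures, with water, 100 nM Dex, DMOG (dimethyloxalylglycine, which blocks prolyl hydroxylases and so stabilises hypoxia-inducible factors) at 333 µM, or Dex and DMOG together. The gate and anything else that differed between the 2 sorts cannot be told apart, and the arms of 1 sort share their starting cells.

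Heme is built from glycine and succinyl-CoA in steps that begin and end in the mitochondrion and pass through the cytosol between. The first step, 5-aminolevulinate synthesis, has a housekeeping form encoded by Alas1 and an erythroid form encoded by Alas2 on the X chromosome. Red cell precursors make most of the body's heme for hemoglobin, and erythroid genes of the pathway are known targets of the factor GATA1. Loss of ALAS2 or of SLC25A38 in people causes sideroblastic anemia, and defects of the later enzymes cause porphyrias.

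Each level is an RPKM value, which scales reads by transcript length and by library depth, divided by 1 factor per library (normalised RPKM). Differences were taken after log2(normalised RPKM + 1). Depth recovered from the files was 11.9 to 52.8 M reads per library. The factor was 0.419 for the Ter119-positive library and 1.02 to 1.18 for the others. In bulk samples, fewer cells of a type and less RNA per cell cannot be told apart. The sort labels of the fresh libraries were checked on Kit, at 175 normalised RPKM in BFU-E, 83.0 in CFU-E and 2.45 in Ter119-positive cells. The CD71 gene Tfrc stood at 18.9, 104 and 1040, and the CD24a gene Cd24a at 23.4, 176 and 3691. Among the cultures Tfrc ran from 114 to 233, above fresh CFU-E. Cd24a was 165 with water and 245 with Dex for cells gated on CD71 alone. For cells gated on CD24a as well it was 103 with water, 267 with Dex, 120 with DMOG and 259 with both agents. Cd24a was thus lower with the added gate in water but not in Dex. These levels were read after culture, so they do not check the gates at sorting. Of 12 mast cell and neutrophil markers, 9 stood at 1 or more normalised RPKM in the Ter119-positive library and 3 in fresh BFU-E, with a summed level of 205 and 100 against 4.87 in CFU-E. Of 8 macrophage markers found, 7 stood at 1 or more in the Ter119-positive library (summed level 42.6), against 2 in BFU-E (7.17) and 0 in CFU-E (1.64). Of the mast cell and neutrophil list Ms4a2 was at 0 in the Ter119-positive library, S100a8 and Ngp in BFU-E, and S100a8, Mcpt8 and Ms4a2 in CFU-E, and the macrophage marker C1qc was at 0 in CFU-E. Of 8 hepatocyte markers 6, 5 and 6 stood at 1 or more and none at 0. They summed to 32.7 in BFU-E, 12.1 in CFU-E and 27.8 in Ter119-positive cells, and the part of these cell types in the results was not tested.

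Promoter windows (RefSeq, build GRCm38.p6) were at hand for 8 of the 9 members. They were searched for GATA motifs (AGATAA or its variant AGATAG, and TGATAA or its variant TGATAG, on either strand), since erythroid genes of the pathway are known GATA1 targets. The 2 windows below belong to the member that differed most between fresh libraries, Alas2, and to the member that led every cultured library, Cpox. They end before the first annotated transcript start or before the RefSeq start, and capitals mark the GATA motifs.
Alas2, chrX:150547167-150547374, plus strand: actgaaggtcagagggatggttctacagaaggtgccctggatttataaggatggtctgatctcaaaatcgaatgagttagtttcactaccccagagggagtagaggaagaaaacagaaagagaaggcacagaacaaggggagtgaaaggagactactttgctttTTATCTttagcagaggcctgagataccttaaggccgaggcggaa
Cpox, chr16:58669958-58670207, plus strand: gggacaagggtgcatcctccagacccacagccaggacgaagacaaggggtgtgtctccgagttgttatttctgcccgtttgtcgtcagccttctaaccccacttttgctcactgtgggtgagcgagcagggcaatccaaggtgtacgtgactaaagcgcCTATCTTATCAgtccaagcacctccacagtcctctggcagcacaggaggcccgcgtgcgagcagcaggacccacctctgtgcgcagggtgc

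The Alas2 window held 1 motif, which reads AGATAA on the other strand and begins 86 bases before the RefSeq start. The Cpox window held 2 motifs that share 1 base, AGATAG beginning 91 bases and TGATAA beginning 86 bases before the start. Over the whole RefSeq windows, which run past the start, Alas2, Cpox and Uros held a GATA motif and Alas1, Alad, Urod, Ppox and Slc25a38 did not, 3 of 8 genes against 33.0% of 27025 genes in the table. A match is a description of letters in a short window only.

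The Alas2 message also carries an iron-responsive element, a stem and loop that iron regulatory proteins bind when iron is short, which holds back translation. It was found in the GENCODE transcripts (GRCm38) by its loop and a fully paired stem, in Alas2 and in no other member. The 30 bases shown, with the loop in capitals, run from position 150547458 to 150552150 of chromosome X, across the first intron, within a leader of 126 bases.
Alas2 element: ttggttcgtcctCAGTGCagggcaacagga

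The first comparison asked how the pathway differs between fresh BFU-E, CFU-E and Ter119-positive cells. Most members were higher at each step, and Alas1 alone was lower at both. In CFU-E the largest log2 differences were those of Uros, Alas2 and Slc25a38, and Alas2 stood far above the other members in its difference at the Ter119-positive step alone. Of 9 members, 7 were at least 2-fold higher in CFU-E than in BFU-E and 0 were 2-fold lower, where 3.32% of 9947 genes were higher and 12.3% lower. The members' median difference was 1.20 on the log2 scale, beside -0.08 over all genes. With 1 library each there is no test of these steps, and the intervals in the next paragraphs are exact (Clopper-Pearson) 95% intervals that cover counting error only.

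Alas1 stood at 13.8 normalised RPKM in BFU-E, 7.37 in CFU-E and 2.17 in Ter119-positive cells. Its CFU-E level was 0.532 times that in BFU-E (0.481 to 0.590), which missed the 2-fold rule, and its Ter119-positive level was 0.294 times that in CFU-E (0.218 to 0.388), on 54 recovered reads. Alas2 stood at 1.37, 6.33 and 7242 normalised RPKM, the first value on 50 recovered reads. It was 4.61 times higher in CFU-E than in BFU-E (3.41 to 6.35) and 1144 times higher in Ter119-positive cells than in CFU-E (1023 to 1284). The erythroid and the housekeeping synthase therefore ran in opposite directions along the 3 fresh libraries. Within a library, the ratio of Alas2 to Alas1 was 0.0991 in BFU-E (0.0730 to 0.132), 0.858 in CFU-E (0.747 to 0.985) and 3343 in Ter119-positive cells (2562 to 4451). This ratio does not depend on the scaling factor.

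**Figure D1:**
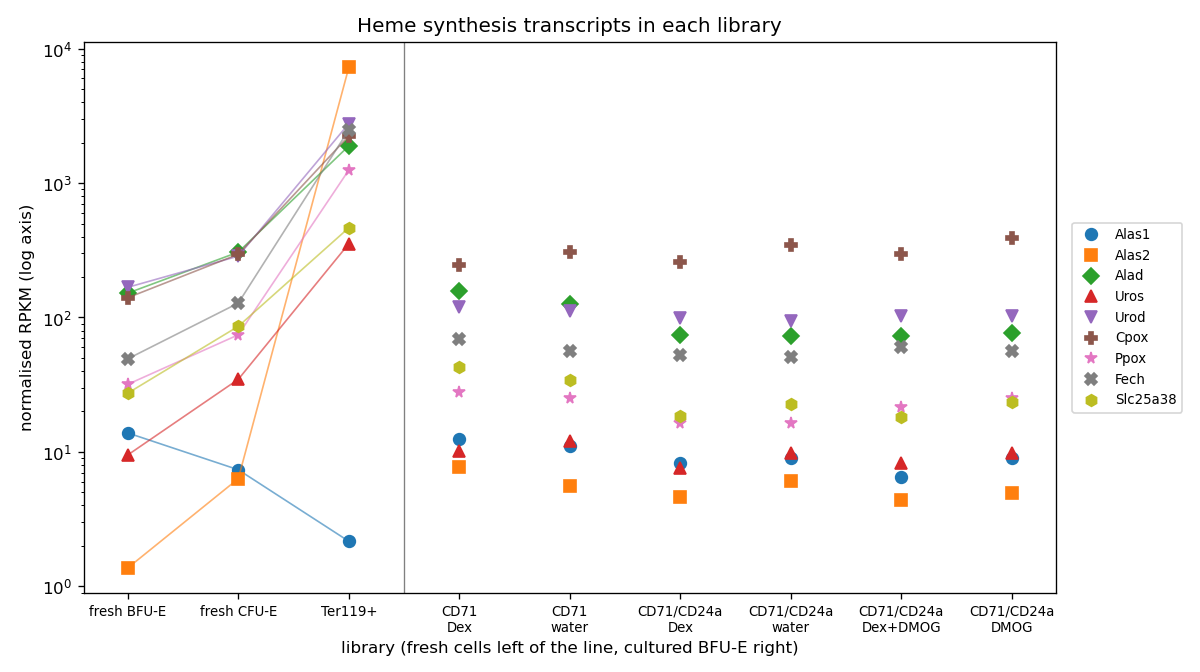
Level of the 9 heme synthesis genes in each library, as normalised RPKM on a log axis, with 1 point per gene and library and lines joining the 3 fresh libraries. Alas2 runs from 1.37 to 7242 across the fresh libraries, Alas1 from 13.8 down to 2.17, and Cpox is the highest member in all 6 cultured libraries.

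Slc25a38, a mitochondrial carrier needed for glycine supply to the first step, stood at 27.4 normalised RPKM in BFU-E, 86.0 in CFU-E and 465 in Ter119-positive cells. It was 3.14 times higher in CFU-E (2.92 to 3.37) and 5.41 times higher again in Ter119-positive cells (5.19 to 5.63), the least of the 8 members that were higher at that step. Alad, which joins 2 aminolevulinate molecules into porphobilinogen, stood at 152, 306 and 1889. Its CFU-E ratio of 2.02 (1.94 to 2.10) lay at the edge of the 2-fold rule, with a log2 difference of 1.008, and its Ter119-positive ratio was 6.17 (6.01 to 6.33).

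Uros, which closes the tetrapyrrole ring, stood at 9.50, 34.7 and 354 normalised RPKM, 3.65 times higher in CFU-E than in BFU-E (3.24 to 4.13) and 10.2 times higher in Ter119-positive cells than in CFU-E (9.63 to 10.8). Urod, which removes carboxyl groups from the ring's acetate side chains, stood at 168, 286 and 2767. It was the one member that was higher in CFU-E yet missed the 2-fold rule there, with a ratio of 1.71 (1.65 to 1.76) and a log2 difference of 0.77. In Ter119-positive cells its ratio to CFU-E was 9.67 (9.46 to 9.89).

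The last 3 enzymes work at the mitochondrion. Cpox, which oxidises coproporphyrinogen, stood at 140, 295 and 2241 normalised RPKM, with ratios of 2.10 (2.05 to 2.16) and 7.59 (7.47 to 7.71), its CFU-E difference of 1.07 just inside the 2-fold rule. Ppox, which makes protoporphyrin, stood at 31.8, 74.4 and 1249, with ratios of 2.34 (2.18 to 2.499) and 16.8 (16.2 to 17.4). Fech, which inserts iron into protoporphyrin, stood at 49.3, 128 and 2488, with ratios of 2.60 (2.53 to 2.67) and 19.4 (19.2 to 19.7). After Alas2, Fech and Ppox had the largest ratios of Ter119-positive cells to CFU-E. Of the sequence words of Fech 11.6% also occur in other genes, of Urod 3.09% and of Cpox a near-equal share, so their counts could include shared reads, and for the other 6 members the share was 0%.

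At the step from CFU-E to Ter119-positive cells 8 of 9 members were at least 2-fold higher and 1, Alas1, was 2-fold lower, where 22.6% of 9532 genes were higher and 28.8% lower. The members' median difference was 3.27, beside -0.21 over all genes. Set against BFU-E directly, 8 members were 2-fold higher and 1 lower in Ter119-positive cells (21.2% and 35.8% of 10251 genes), with the 2 steps and this comparison sharing their libraries. Without the scaling factors all 8 stayed 2-fold higher, the least being Slc25a38 at 1.05 and Alad at 1.25, and Alas1 stood at -2.24. That setting moved the median of all genes to -1.30 and the share of higher calls among all 2-fold calls from 44.0% to 12.3%. Of 6 erythroblast markers (band 3, protein 4.2 and globins among them) all were at 1 or more normalised RPKM in each fresh library, with a summed level of 152 in BFU-E, 460 in CFU-E and 201868 in Ter119-positive cells.

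**Figure D2:**
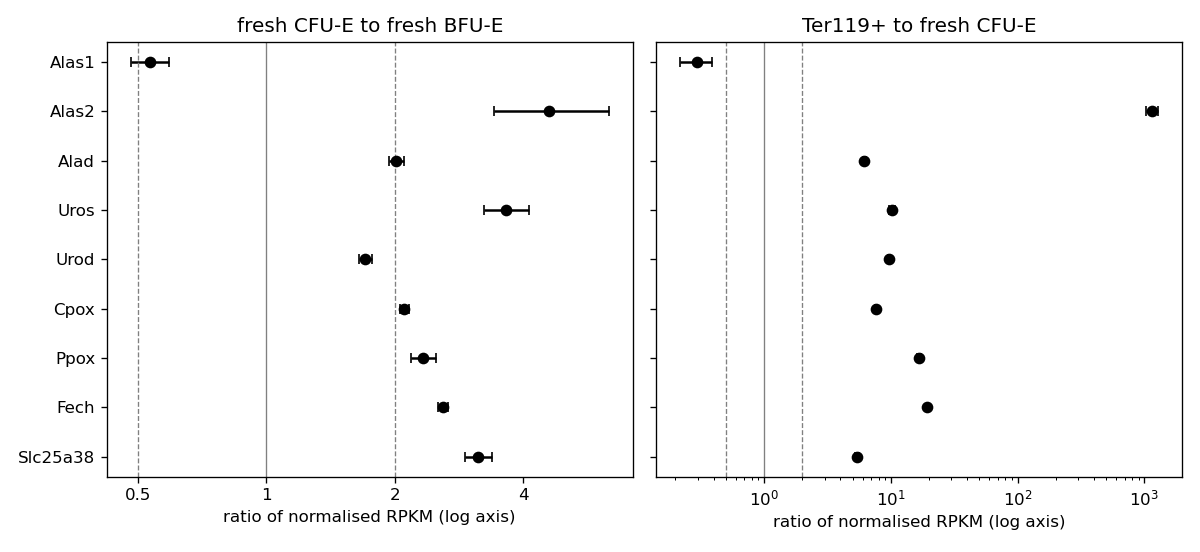
Ratio of normalised RPKM for each member between fresh CFU-E and fresh BFU-E (left) and between Ter119-positive cells and fresh CFU-E (right), on log axes, with exact 95% counting intervals as bars and dashed lines at 2-fold. Urod lies between 1 and 2 on the left, Alas1 lies below 1 on both sides, and Alas2 reaches 1144 on the right.

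The make-up of the pathway's transcripts differed between the fresh libraries. Alas2 was 0.231% of the summed level of the 9 members in BFU-E, 0.517% in CFU-E and 38.7% in Ter119-positive cells. Urod, Alad and Cpox led in BFU-E with 28.3%, 25.6% and 23.7%, and in CFU-E the same genes held 23.4%, 25.0% and 24.1%. In Ter119-positive cells they held 14.8%, 10.1% and 11.98%, and Fech held 13.3%. The span from the lowest to the highest member was 122-fold in BFU-E, 48.4-fold in CFU-E and 3343-fold in Ter119-positive cells. In the order of levels in CFU-E the leading 3 were close, Alad at 306, Cpox at 295 and Urod at 286 normalised RPKM, and with 1 library no spread between samples can be set beside these gaps.

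Genes that supply or carry intermediates were read from a list of 20 (transporters, succinyl-CoA enzymes and proteases that act on ALAS among them). From BFU-E to CFU-E 5 of 20 were at least 2-fold higher and 0 lower (3.32% and 12.3% of all genes). Among them were Slc6a9, the plasma membrane glycine transporter, at 3.01 and 16.02 normalised RPKM, Abcb6, a porphyrin transporter, at 14.98 and 49.4, and Fam210b at 5.42 and 16.1. From CFU-E to Ter119-positive cells 12 of 20 were 2-fold higher and 5 lower, where 22.6% of all genes were higher and 28.8% lower, so the count of lower genes lies no higher than that of all genes. Slc25a37 (mitoferrin 1, the mitochondrial iron importer) went from 37.9 to 6417, Slc6a9 reached 1017, Fam210b 642, and Slc25a39 went from 81.3 to 1686.

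The 5 lower genes, named after their values were seen, are given as values only. Suclg1, a subunit of succinyl-CoA ligase, went from 87.4 in CFU-E to 14.0 in Ter119-positive cells and its partner Sucla2 from 17.2 to 7.55. Clpp, a subunit of a mitochondrial protease, went from 101 to 30.3 and Lonp1 from 114 to 52.0. Pgrmc1, which binds heme and associates with ferrochelatase, went from 24.7 to 8.52. Without the scaling factors, all levels of the Ter119-positive library stand lower relative to CFU-E by the shift given above, so these downward steps become larger.

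Iron-sulfur assembly, which Fech needs for its cluster, had members in both directions. Of 15 listed genes 14 were measured, and 1 (Hscb) was 2-fold lower in CFU-E than in BFU-E, with 0 higher (12.3% and 3.32% of all genes). From CFU-E to Ter119-positive cells 6 of 14 were higher and 4 lower, where 22.6% of all genes were higher. The lower count is near the 28.8% of all genes that were lower. Glrx5, whose loss lowers heme synthesis in erythroid cells, went from 381 to 1921 normalised RPKM and Isca1 from 18.3 to 155. Hscb, a co-chaperone of cluster transfer, stood at 17.3 and 164.5, and Hspa9, its chaperone partner, went from 166 to 15.3. Of 10 iron response genes 3 were higher and 0 lower from BFU-E to CFU-E, where 3.32% of all genes were higher and 12.3% lower. The 3 were Tfrc, the exporter Slc40a1 and the ferritin gene Fth1, at 722 and 1662. Tfrc encodes CD71, on which both libraries were gated, so its place in this count is not independent of the sort. At the next step 5 were higher and 1 lower (22.6% and 28.8% of all genes), led by Ncoa4, a ferritin receptor for autophagy, at 1.74 and 33.1, with Aco1, whose protein binds iron-responsive elements, at 20.8 and 2.17. Among 10 erythroid factors 0 were higher and 2 lower from BFU-E to CFU-E (Gata2, at 82.9 and 1.26, and Nfe2, at 158 and 52.2). Of all genes 3.32% were higher and 12.3% lower at that step, so 2 of 10 lower is near the share of all genes. At the next step 6 were higher and 1 lower (22.6% and 28.8% of all genes), and Nfe2, at 52.2 and 1477, was the largest. Gata1, added after its values were seen, stood at 169, 164 and 557.

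Culture of BFU-E was set beside fresh BFU-E of the same gate, with CD71 sort water cells against the fresh library. Alas2 and Cpox were at least 2-fold higher and 0 of 9 members lower, where 6.26% of 10059 genes were higher and 9.06% lower. Alas2 stood at 1.37 normalised RPKM fresh and 5.57 cultured, a ratio of 4.06 (2.90 to 5.74), on 50 and 127 reads. Cpox stood at 140 and 306, a ratio of 2.18 (2.12 to 2.24). The other 7 members lay between 0.662 times (Urod, 168 and 111) and 1.27 times (Uros, 9.50 and 12.02) their fresh level. Marker lists also differed between these libraries. Of 6 erythroblast markers 3 were 2-fold higher in culture (summed level 152 fresh and 1186 cultured), and 5 of 6 early progenitor markers were lower (561 and 175). Of the hepatocyte markers all 6 that passed the level filter were lower (32.7 and 3.39), and of the mast cell and neutrophil markers 2 of 4 were (100 and 27.1). Their part in the member differences was not tested, and culture, time and preparation cannot be told apart.

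Cpox was the highest member in each of the 6 cultured libraries and in none of the 3 fresh ones. It stood at 245 with Dex and 306 with water in the CD71 sort, and at 259, 344, 296 and 392 with Dex, water, both agents and DMOG in the CD71/CD24a sort. Urod, the enzyme before it in the pathway, stood at 120, 111, 99.9, 93.9, 103 and 102 in the same libraries. The ratio of Cpox to Urod was 0.837, 1.03 and 0.810 in fresh BFU-E, CFU-E and Ter119-positive cells. In the cultured libraries it ran from 2.05 (CD71 sort, Dex) to 3.86 (CD71/CD24a sort, DMOG). The 6 cultures come from 2 sorts, and the share of other gene pairs with such a gap was not counted. Cpox made up 35.4% to 56.1% of the members' summed level in culture. The ratio of Alas2 to Alas1 stayed below 1 in all 6 cultures, between 0.5001 and 0.675.

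**Figure D3:**
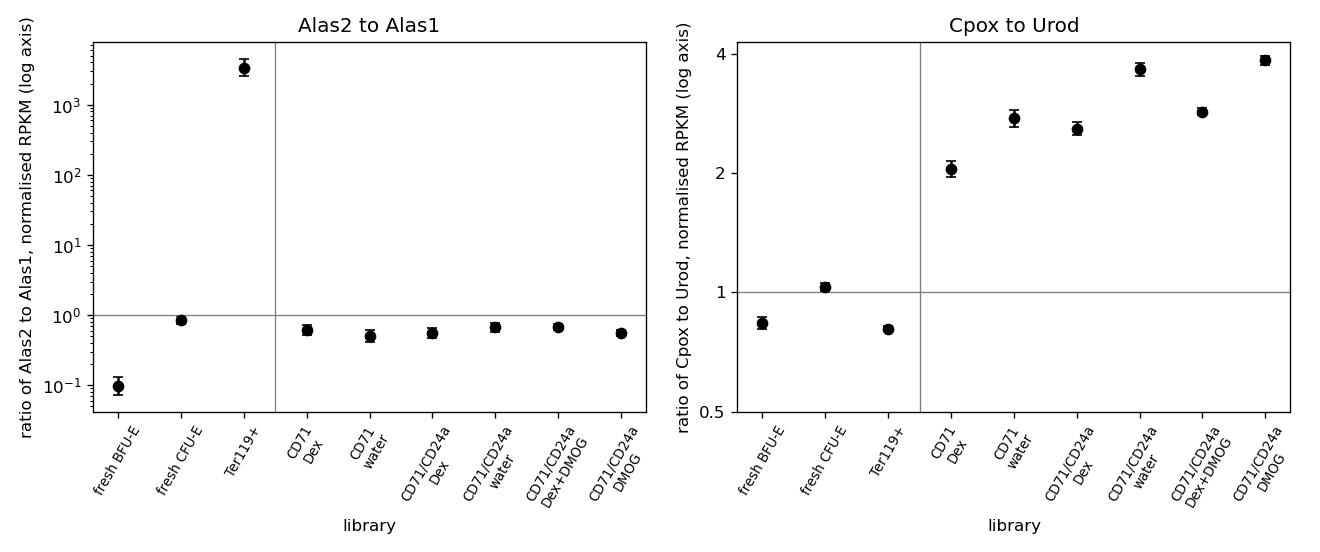
Ratio of Alas2 to Alas1 (left) and of Cpox to Urod (right) within each library, on log axes, with exact 95% counting intervals as bars and a line at 1. Alas2 exceeds Alas1 in the Ter119-positive library alone. Cpox to Urod lies between 2.05 and 3.86 in the 6 cultured libraries and between 0.810 and 1.03 in the 3 fresh ones.

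The CD71/CD24a sort was set beside the CD71 sort in each arm. Between the water cultures 0 of 9 members were 2-fold different, where 1.44% of 9736 genes were higher and 3.06% lower. Between the Dex cultures Alad and Slc25a38 were 2-fold lower in the CD71/CD24a sort, where 3.67% of 9688 genes were higher and 4.61% lower. Alad stood at 157 and 74.1 normalised RPKM with Dex, a ratio of 0.472 (0.445 to 0.501), and at 127 and 73.1 with water, a ratio of 0.578 (0.542 to 0.616). Slc25a38 stood at 42.8 and 18.6 with Dex, a ratio of 0.435 (0.395 to 0.478), and at 34.4 and 22.8 with water, a ratio of 0.663 (0.601 to 0.732). Without the scaling factors Alad (-0.92) no longer met the rule with Dex and Slc25a38 (-1.01) did. The share of higher calls among all genes moved from 32.0% to 63.2% with water and from 44.3% to 68.5% with Dex. Summed erythroblast markers were 1186 and 551 in the CD71 sort with water and Dex and 117 to 248 in the 4 CD71/CD24a cultures. Mast cell and neutrophil markers summed to 27.1 and 26.7 in the CD71 sort and to 5.50 to 6.56 in the other, and hepatocyte markers to 3.39 and 6.05 against 12.03 to 15.03. The part of these cells in the sort differences was not tested.

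The next comparison asked whether 4 h of Dex altered the pathway, over the 3 pairs of cultures with and without it. The fit treats these as separate blocks, though the pairs of the CD71/CD24a sort share their starting cells. No member passed (0 of 9, limma with Benjamini-Hochberg adjustment), where 2.02% of 9535 genes did, 133 rising and 60 falling, with 1540 genes at an unadjusted p under 0.05. The members' median difference was -0.03, beside -0.01 over all genes. Kit (0.76), a progenitor receptor gene, and Fth1 (0.79), the ferritin heavy chain gene, rose, and the beta globin gene Hbb-bt (-1.57) and the erythroid factor genes Lmo2 (-0.69) and Zfpm1 (-0.71) fell in the same fit, while 0 of 20 supply genes, 0 of 14 measured iron-sulfur genes and 0 of 12 tested heme handling genes passed.

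Cpox came closest. Its differences were -0.32 for the CD71 pair, -0.41 for the CD71/CD24a pair and -0.41 for the pair with DMOG in both arms, lower in 3 of 3 pairs. The CD71/CD24a pairs with and without DMOG share their cells, so these are not 3 independent preparations. The fitted difference was -0.38 (SE 0.069), with an unadjusted p of 0.0013 and an adjusted p of 0.058 by limma, just outside the threshold of 0.05. As a ratio, Cpox with Dex was 0.802, 0.752 and 0.754 times its level without it, and the counting intervals of the 3 ratios lay between 0.737 and 0.824. With upper quartile scaling the adjusted p was 0.047, and without the CD71 pair it was 0.0035. Over the other alternatives it lay between 0.052 and 1.0.

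Uros was also lower in 3 of 3 pairs, by -0.22, -0.31 and -0.23, with a fitted difference of -0.26 (SE 0.072) and an adjusted p of 0.17. Urod was higher in 3 of 3 pairs, by 0.11, 0.09 and 0.02 (fitted 0.07, adjusted p = 0.62), and Fech by 0.29, 0.06 and 0.09 (fitted 0.15, adjusted p = 0.39). The share of all genes with the same sign in 3 of 3 pairs was not counted. The other 5 members had adjusted p values of 0.63 to 0.94 in limma. For Alas1, Alas2, Slc25a38 and Ppox the CD71 pair lay above 0 and both other pairs below it, for Ppox by under 0.01 in the CD71/CD24a pair without DMOG, and 28.8% of tested genes had the CD71 pair opposite to both others.

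An interaction term, chosen after these signs were seen, sets the Dex difference in the CD71 pair against that in the other 2 pairs. Its 1 residual degree of freedom is the difference between those 2 pairs, which share the cells of 1 sort, and the CD71 sort gives a single pair. To this limma adds 10.5 prior degrees of freedom, drawn from the spread of all tested genes. No spread between sorts enters the test, so a pass does not show that the response to Dex differs between sorts. In these libraries Alas2 and Slc25a38 met the threshold (2 of 9), as did 6.03% of 9535 genes. Alas2 stood at 7.67 with Dex and 5.57 with water in the CD71 sort, at 4.61 and 6.11 in the CD71/CD24a sort, and at 4.41 and 4.99 there with DMOG. It was higher with Dex in the first pair and lower in both others, with differences of 0.40, -0.34 and -0.15, and the interaction was 0.65 (SE 0.16, limma adjusted p = 0.037). Slc25a38 stood at 42.8 and 34.4, at 18.6 and 22.8, and at 18.3 and 23.4 in the same order, with differences of 0.31, -0.28 and -0.34 and an interaction of 0.62 (SE 0.12, limma adjusted p = 0.014).

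Alas1 (0.42, adjusted p = 0.12) and Alad (0.34, adjusted p = 0.11) did not meet that threshold in limma, nor did Cpox (0.09, adjusted p = 0.71) or Uros (0.05, adjusted p = 0.85). With no filter on low values 0 members passed, with adjusted p of 0.25 for Alas2 and 0.19 for Slc25a38, and with a pseudocount of 0.1 Slc25a38 alone did. In the same fit the erythroblast gene Hba-a1 (-1.16) met the threshold with the opposite sign, its Dex difference being the lower one in the CD71 pair. The part of erythroblast RNA in the CD71 pair was not tested. Without the CD71 pair, Cpox (-0.41), Slc25a38 (-0.31, adjusted p = 0.012) and Uros (-0.27, adjusted p = 0.042) passed with lower levels under Dex in limma, where 1249 of 9509 genes passed in place of 193. Both remaining pairs share the cells of 1 sort.

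**Figure D4:**
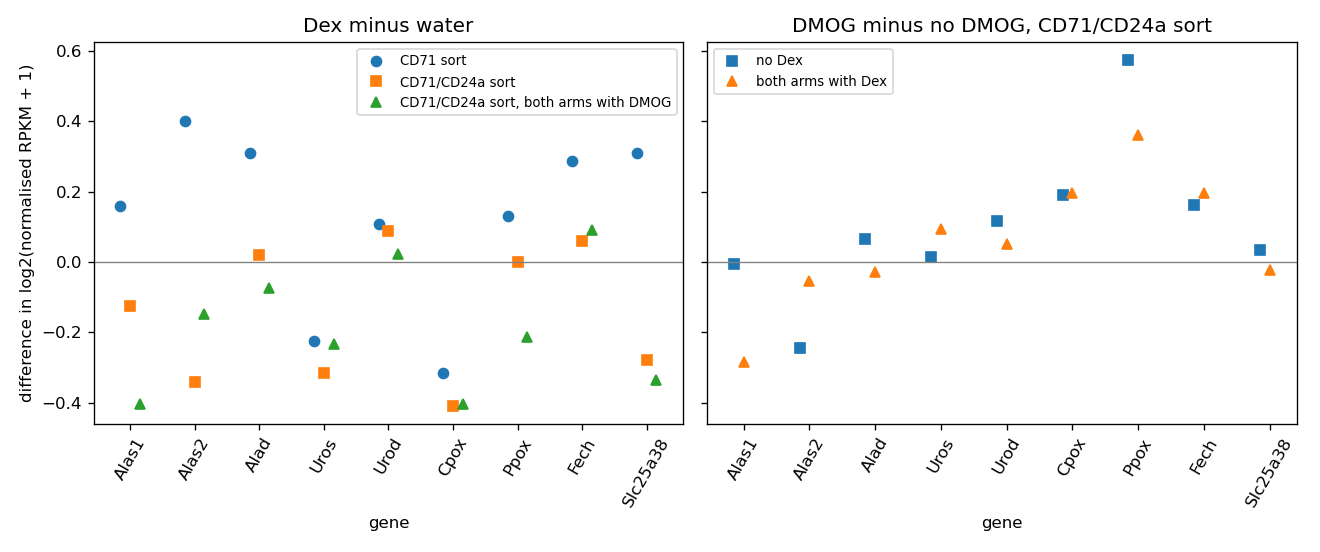
Difference in log2(normalised RPKM + 1) for each member, with 1 point per pair of cultures, between Dex and water in 3 pairs (left) and between DMOG and no DMOG in 2 pairs of the CD71/CD24a sort (right). Cpox and Uros lie below 0 in all 3 Dex pairs, Slc25a38 and Alas2 lie above 0 in the CD71 pair alone, and Ppox has the largest DMOG differences, 0.57 and 0.36.

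DMOG was given in the CD71/CD24a sort only, with and without Dex, so the Dex and DMOG comparisons share the 4 cultures of that sort. In the fit it is a difference between whole pairs, judged against the spread of Dex differences from pair to pair, since no pair of cultures with DMOG was repeated. No member passed (0 of 9), where 0.021% of 9535 genes did, 2 rising and 0 falling, with 346 genes at an unadjusted p under 0.05 in limma. Ppox came closest. It stood at 16.5 normalised RPKM with water and 25.1 with DMOG, and at 16.5 with Dex and 21.5 with Dex and DMOG. Its differences were 0.57 and 0.36, with ratios of 1.52 (1.39 to 1.66) and 1.30 (1.19 to 1.42), and the fitted difference was 0.47 (SE 0.11), with an unadjusted p of 0.0040 and an adjusted p of 0.71. Both DMOG libraries lay above both others of that sort, and the share of all genes that do so was not counted. Without the CD71 pair, which enters the estimate of spread but not the DMOG contrast, the adjusted p was 0.0052 and 139 genes passed.

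Cpox (0.19 and 0.19) and Fech (0.16 and 0.20) were also higher with DMOG in both arms, with fitted differences of 0.19 and 0.18 and adjusted p of 1.0 each. Alas2 (-0.25 and -0.05) and Alas1 (-0.01 and -0.29) were lower in both arms, and for the other 4 members fitted differences lay between 0.01 and 0.08. The interaction of Dex and DMOG was tested with 1 residual degree of freedom. It passed for 0 of 9 members and 0% of all genes in limma (278 genes at an unadjusted p under 0.05), with estimates from -0.42 for Alas1 to 0.03 for Uros.

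Members were compared in pattern by Pearson's r of log2 levels, as a description over libraries that share the scaling and, in the cultures, their cells. Over all 9 libraries Alas1 ran against the other 8 members, with r from -0.92 (Cpox) to -0.72 (Alad), and the other pairs had r of 0.76 to 0.995. Without the Ter119-positive library the picture split. Alas1 then had r from -0.60 (Cpox) to 0.25 (Alad), so it no longer ran against all other members. Alad, Uros, Urod, Ppox, Fech and Slc25a38 kept r of 0.78 to 0.96 with each other over 8 libraries, while Alas2 had its highest r with Cpox (0.75) and Cpox had r of -0.35 with Alad and with Urod. Among all genes, those most like Alas1 over 9 libraries were Trak1, Usp42, Ebpl, Lipe and Zfp775 (r from 0.98 to 0.99), and without the Ter119-positive library Usp42, Trak1, Smo, Crtc1 and Herpud1 (r from 0.96 to 0.98). Those most like Alas2 were Ikzf5, Dnajb13, Hbq1b, Mafk and Zdhhc5 over 9 libraries (r from 0.995 to 0.998), where the Ter119-positive library alone sets the range. Over 8 libraries they were Scd1, Arhgdig, Surf2, Tlcd1 and Slc66a1 (r from 0.95 to 0.97), none shared with the first 5.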

How the data were processed

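The members and gene lists were chosen with earlier results of these data known. The authors deposited RPKM values for 23041 RefSeq records per library on mm9, a build named in the submitters' processing notes. Aligner, counter and strand use: not given in the sources used here. In the files of the CD71/CD24a sort 5954 to 7412 values were exactly 1 and none was 0, and the exact 1 was read as 0. Steps between low RPKM values, counted up to 10 reads with a tolerance of 0.1 reads, came out whole for 67.0% to 69.9% (20% by chance) and gave depth and the reads behind each interval, so these are approximate. Symbols came from RefSeq (22397 records) and GENCODE (114), and 530 records had none. Each library was divided by its median ratio over 6888 genes (RPKM of 1 or more throughout). Genes at 1 or more normalised RPKM in either library were compared by a 2-fold rule. The 6 cultures were tested with limma 3.58.1 (mean-variance trend, 9535 genes averaging 1 normalised RPKM or more, pseudocount 1, adjusted p under 0.05), with the culture pair as a block, since the arms of a sort came from the same cells per the labels' protocols. Pairs with and without DMOG are separate blocks, so DMOG is a difference between blocks. It is judged against the spread of Dex differences from pair to pair (2 residual degrees of freedom). With no replicate of a condition, p-values rest on the spread of Dex differences from pair to pair, moderated by the spread of all tested genes. The spread of levels between pairs is taken up by the blocks and does not enter. The prior degrees of freedom were 4.30 for Dex and DMOG, 11.7 for the Dex by DMOG interaction and 10.5 for Dex by sort. On simulated data for the Dex fit over 9535 genes, 90% of log2 changes of 0.75 and 99% of those of 1.5 were found. The simulation gave a changed gene the same Dex effect in all 3 pairs and drew the pairs independently. Its sizes also exceed every fitted Dex difference of the members, so it does not give the power behind the 0 of 9 members called. Genes named beside the members were up to 4 per list by size of difference among those past the rule, and the 5 most like Alas1 and Alas2. Motif positions and coordinates are from GRCm38 and were not set against mm9. R 4.3.3, Python 3.11.15, pandas 2.3.3 and scipy 1.17.1 were used. Some results on genes beside the members are not reported here.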

Additional observations from a re-analysis of the deposited data

Results flagged for a closer look

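The Dex difference in the CD71 pair was larger than that in the other 2 pairs by 0.65 for Alas2 and by 0.62 for Slc25a38 on the log2 scale, with limma adjusted p = 0.037 and 0.014. The contrast was chosen after the signs were seen. Its own error comes from the 2 CD71/CD24a pairs, which share the cells of 1 sort, with 1 residual degree of freedom. Limma adds 10.5 prior degrees of freedom from the spread of all tested genes. The CD71 sort gives 1 pair, so the contrast does not show a difference between sorts. The sign pattern behind it, the CD71 pair opposite to both others, was present in 28.8% of tested genes. In the CD71 sort the summed erythroblast markers were 551 with Dex and 1186 with water, in the other cultures 117 to 248, and their part in the result was not tested.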

How the results depend on the processing

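Pairing comes from the protocol. With no replicate block 3 genes passed for Dex and 0 for DMOG, 0 members passed in either, and the DMOG estimates of Alad (-0.45), Uros (-0.11), Urod (-0.043) and Slc25a38 (-0.43) turned negative, since DMOG is then set against both sorts. Members called for Dex were 1 with upper quartile scaling and 0 to 3 when a pair was left out, and members called for DMOG were 1 without the CD71 pair. Over all genes, Dex calls (193) became 21 with no filter and 132 to 1249 when a pair was left out. DMOG calls (2) became 0 with a pseudocount of 0.1 or no filter, 5 with upper quartile scaling, 5 with summed records and 139 without the CD71 pair. When a pair was left out, Dex estimates with a change of sign ran from -0.27 to 0.016 for Alas1, -0.24 to 0.13 for Alas2 (0.03 without the pair with DMOG), -0.028 to 0.16 for Alad, -0.11 to 0.065 for Ppox and -0.31 to 0.015 for Slc25a38. Members past the threshold for the Dex by sort term were 1 with a pseudocount of 0.1 and 0 with no filter, where 31 genes passed in place of 575. Between sorts, 2-fold different genes became 762 with water (from 438) and 1310 with Dex (from 803) with a pseudocount of 0.1, which moved the share of higher calls with water to 45.4%, and members with Dex became 1 without scaling factors. Among 2-fold comparisons, member counts at both fresh steps and for culture were the same under every alternative run. The cause of these shifts was not tested. Depth limits Alas1 in Ter119-positive cells (54 reads) and Alas2 in BFU-E (50 reads).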

Other observations

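Genes that export, sense or degrade heme were read from a list of 14. From CFU-E to Ter119-positive cells 6 of the 10 that passed the level filter were 2-fold higher and 3 lower, where 22.6% of all genes were higher and 28.8% lower. The 3 lower genes, named after their values were seen, were Flvcr1, a heme exporter, at 13.5 and 2.43 normalised RPKM, Nr1d1 at 6.17 and 0.984, and Hmox2 at 25.1 and 10.99. The largest of the higher genes were Abcg2, an exporter of porphyrins, at 15.8 and 286 normalised RPKM, Eif2ak1, the heme-regulated inhibitor of translation, at 46.5 and 809, Slc48a1, a heme transporter of endosomes, at 53.9 and 481, and Hmox1 at 0.490 and 8.90. Hmox1, the inducible heme oxygenase, was also singled out with DMOG after its values were seen. In the CD71/CD24a sort it stood at 3.95 with water and 9.89 with DMOG, and at 2.90 with Dex and 6.53 with both agents. The DMOG cultures thus lay above the others of that sort, and the share of all genes that do so was not counted. The fitted DMOG difference of Hmox1 was 1.04 (SE 0.10), with an adjusted p of 0.052 in limma.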
